A study of Danio rerio with 4 samples.

Results

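The cells described here carried transcripts of *tcf21* or *tbx18* and no transcript of *aldh1a2* or *wt1b*. The study used all of these genes as markers of the epicardium. It proposed that clusters with *tcf21* and *tbx18* but without *aldh1a2* and *wt1b* were epicardium away from the heart wound. The cells described here were picked from single mCherry+ EGFP- cells of adult zebrafish ventricles at 7 days post-cryoinjury (dpi). A well counted as a cell when it held at least 1000 endogenous transcripts, and 240 of 1453 such cells met the rule. They are called members below, and the 1213 remaining cells are called all other cells. The members numbered 43 and 58 on the 2 *prrx1b*-/- plates, against 73 and 66 on the 2 WT plates.

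The comparison of genotypes set *prrx1b*-/- fish, which carry a nonsense allele of the transcription factor gene *prrx1b*, against their wild-type siblings (WT), with 2 plates of 384 wells each. Ventricles of 20 fish per genotype were used and no source assigns fish to plates, so no p-value below can be taken to measure the spread between fish. Between genotypes the p-values measure the spread between plates. Between classes of cells, and for the difference of genotype effects, the plate was a block. Those p-values measure how far the difference within a plate varied from plate to plate. All fish carried the *tcf21* lineage label, described as Tg(tcf21:mCherry) in the sample records and in the study's methods as a CreERT2 driven by *tcf21* that recombines, in embryos given 4-hydroxytamoxifen, a ubiquitous EGFP-to-mCherry reporter. In the second description the label marks descendants of *tcf21*-expressing cells, so epicardium-derived cells (EPDCs) that no longer express *tcf21* are sorted too.

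The epicardium is the mesothelial sheet on the heart. After injury it is activated, covers the wound, and sends EPDCs into the underlying tissue, where some become fibroblasts and others mural cells (pericytes and smooth muscle around vessels). *tcf21* and *tbx18* encode transcription factors of the epicardial lineage, *aldh1a2* encodes the enzyme that makes retinoic acid, and *wt1b* encodes a transcription factor of the activated epicardium. Single cells were profiled by SORT-seq, a plate method in which each transcript is counted through a molecular barcode. Levels are given as CPM, transcripts per 1000000 of those summed over one class of cells on one plate. Sets of 4 values run in the order *prrx1b*-/- plate 1, *prrx1b*-/- plate 2, WT plate 1, WT plate 2. Gene names follow the name table, which gives many zebrafish genes the symbol of their human counterpart, and an identifier is added where several genes share one symbol.

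The levels of the 4 genes that chose the members are a description only. *tcf21* stood at 313, 219, 288 and 317 CPM in members, against 82.8, 53.9, 71.6 and 98.5 CPM in all other cells. *tbx18* stood at 212, 294, 291 and 295 CPM in members, against 78.6, 71.1, 75.9 and 53.4 CPM in all other cells. Both genes were detected in 93 members, *tcf21* alone in 84 and *tbx18* alone in 63, and missed transcripts and separate sets of cells cannot be told apart from these counts. At the edge of the rule, 94 of the 240 members held a single *tcf21* or *tbx18* transcript and 93 held 3 or more. Just outside it, 117 of the 585 cells with *tcf21* or *tbx18* and also *aldh1a2* or *wt1b* (20.0%) were kept out by a single *aldh1a2* or *wt1b* transcript. The lowest member total was 1064 transcripts, and no well with 900 to 1000 transcripts met the rest of the rule.

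Members were shallow cells, which matters for a rule that asks for 0 transcripts of 2 genes. Their median depth was 5605, 4786, 4127 and 3200 transcripts, against 8658, 8259, 7045 and 5917 transcripts in all other cells. Synthetic ERCC spike-in molecules, which each well received with its primers, had nearly the same medians, at 1418, 1172, 1271 and 1028 molecules in members and 1456, 1156, 1286 and 1081 molecules in all other cells. The members thus held fewer endogenous transcripts in wells that counted spike-ins about as well. A shallow cell without *aldh1a2* and *wt1b* and one whose few transcripts of them were missed cannot be told apart one by one. When the rule was applied to a random share of 0.5 of each cell's transcripts, 53 of 232 cells chosen (22.8%) were not members at full depth, and among the transcripts that the rule had not seen the chosen cells held 63.9, 35.6, 36.0 and 27.9 CPM of *aldh1a2*, against 679, 830, 655 and 619 CPM in the cells not chosen. For *wt1b* the same values were 102, 59.4, 97.7 and 93.0 CPM, against 298, 320, 312 and 280 CPM. With every cell thinned to 1000 transcripts before the rule, 92 of the 207 cells chosen (44.4%) were not members at full depth.

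**Figure D1:**
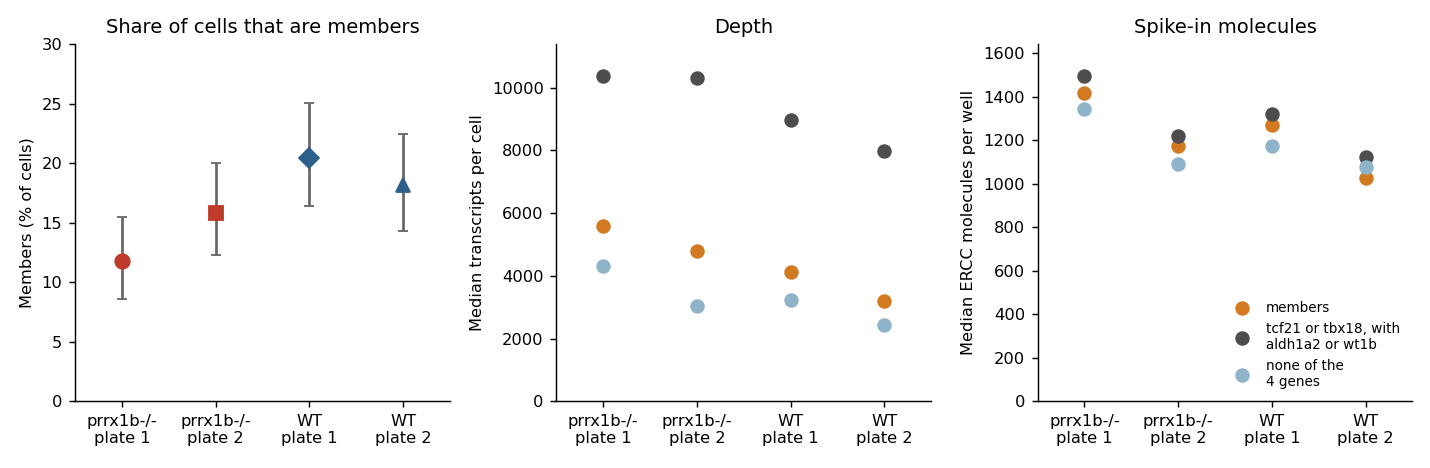
Members by plate, *prrx1b*-/- plates on the left of each panel and WT plates on the right. Left, members as a percentage of cells with exact 95% binomial intervals, from 11.7% to 20.4%. Middle and right, median transcripts per cell and median ERCC spike-in molecules per well in members, in cells with *tcf21* or *tbx18* and also *aldh1a2* or *wt1b*, and in cells with none of the 4 genes. Member depth lies between 3200 and 5605 transcripts, well under the second class, while spike-in medians lie close together on each plate.

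The share of cells that were members was lower on both *prrx1b*-/- plates, but 2 plates against 2 cannot settle the difference. Members made up 11.7% of cells (exact 95% interval 8.63 to 15.5%) and 15.8% (12.3 to 20.0%) on the *prrx1b*-/- plates. On the WT plates they made up 20.4% (16.4 to 25.0%) and 18.13% (14.3 to 22.5%), and the plates of the 2 genotypes did not overlap. The means were 13.8% ± 2.90 in *prrx1b*-/- and 19.3% ± 1.64 in WT (SD, n = 2 plates each), a difference of -5.49 percentage points. The two-sided exact permutation test gave p = 0.3333, the smallest value this design allows. *prrx1b*-/- plates were also the deeper ones, and among cells of 3000 to 8000 transcripts the difference was -2.22 points (22.3% and 25.8% in *prrx1b*-/-, 29.2% and 23.3% in WT; exact permutation p = 0.6667), with overlapping plates. With every cell thinned to 1000 transcripts before the rule it was -5.58 points (12.3% and 10.7% in *prrx1b*-/-, 16.2% and 17.9% in WT; exact permutation p = 0.3333), without overlap.

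Markers that the rule did not use fitted the name remote epicardium only in part. The study chose its further markers by high expression in clusters of these same cells, and then stained heart sections for them. Their levels here are therefore no independent check of the name. *RTCA* (an RNA 3' phosphate cyclase) and *HSPH1* (a heat shock protein), both used by the study for remote epicardium, were higher in members than in all other cells on every plate. *RTCA* stood at 244, 387, 364 and 334 CPM in members, against 157, 134, 115 and 127 CPM in all other cells (log2 fold change 1.28 ± 0.16, adjusted p = 1.7e-06; values after ± are SE). *HSPH1* stood at 620.2, 707, 510.1 and 456 CPM in members, against 194, 224, 241 and 111 CPM (1.56 ± 0.14, adjusted p = 9.3e-09). Of the 2 wound-side markers outside the rule, *cldc1* was lower, at 383, 331, 163 and 204 CPM in members, against 617, 808, 435 and 402 CPM (-1.13 ± 0.13, adjusted p = 8.0e-07). *adh8a*, an alcohol dehydrogenase gene, did not pass the test, at 432, 403, 449 and 499.7 CPM in members, against 378, 386, 423 and 335 CPM (0.18, adjusted p = 0.36). In cells of 3000 to 8000 transcripts the call ended for *RTCA* (0.31, adjusted p = 0.48) and held for *HSPH1* (0.60, adjusted p = 0.010). *HSPH1* is itself a heat shock gene. Its call ended when cells over 3% on a stress list, described below, were left out (0.17, adjusted p = 0.83), while that of *RTCA* held (0.97, adjusted p = 0.0053). That filter picks cells by heat shock genes, so it cannot weigh *HSPH1* as a marker. The 184 cells with none of the 4 genes had *RTCA* at 254, 317, 242 and 317 CPM and *HSPH1* at 207, 476, 418 and 391 CPM, and members did not pass the test against them for *RTCA* (0.20, adjusted p = 0.66) or *HSPH1* (0.62, adjusted p = 0.15). The cells are therefore called by their rule here and not by a place in the heart.

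**Figure D2:**
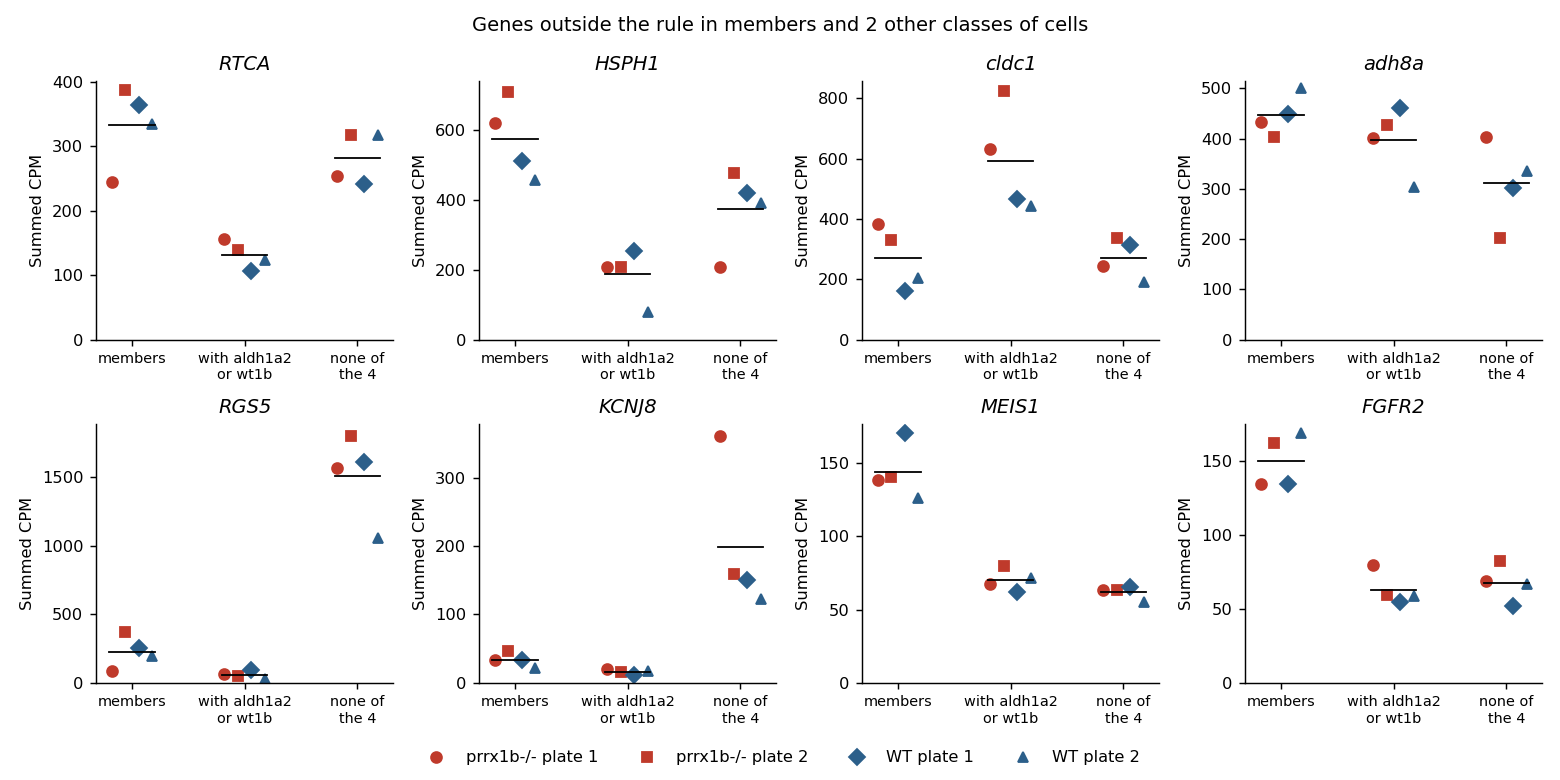
CPM of 8 genes outside the rule, 1 point per plate, in members, in cells with *tcf21* or *tbx18* and also *aldh1a2* or *wt1b*, and in cells with none of the 4 genes; bars are means of the 4 plates. *RTCA* and *HSPH1* are higher in members than in the second class and closer to the third, *cldc1* is lower than in the second class, and *adh8a* is not. *RGS5* and *KCNJ8* are high only in the third of these classes, and *MEIS1* and *FGFR2* are highest in members.

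Against all other cells and at full depth, a larger share of members' transcripts came from inducible heat shock genes and several basement membrane and microfibril genes. A smaller share came from genes for keratins, apical membrane proteins and some fibrillar collagens. These are shares and not numbers per cell, as members held fewer transcripts. The test used summed counts per plate with the plate as a block, and 1400 of 8448 genes tested passed an adjusted p of 0.05 (16.6%), 711 higher (8.42%) and 689 lower (8.16%). The genes named next are the 15 largest changes in each direction that held on every plate at a mean of at least 50 CPM in the higher class. They are given for all 4 plates in the plot of named genes.

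Among the genes higher in members, the most abundant was *hsp70l*, an inducible Hsp70 chaperone gene. It stood at 8622, 6706, 5688 and 4356 CPM in members, against 1649.7, 1635, 2079 and 1068 CPM in all other cells (log2 fold change 1.94 ± 0.10, adjusted p = 7.3e-13), and no plate of one class reached the other. *fgl2b*, a fibrinogen-like gene, stood at 314, 262, 490.4 and 269 CPM in members, against 72.3, 57.7, 76.3 and 52.5 CPM (2.30 ± 0.16, adjusted p = 4.9e-11). It was seen in 117 members (48.8%), against 19.8% of all other cells, which were deeper. Its relative *FGL2* was higher by 2.18 on the log2 scale.

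*SOSTDC1*, a secreted BMP and Wnt antagonist, stood at 93.6, 65.6, 165 and 95.5 CPM in members, against 22.1, 20.7, 30.9 and 13.3 CPM in all other cells (2.20 ± 0.24, adjusted p = 2.1e-07). *SMAD6*, an inhibitor of BMP signalling inside the cell, stood at 106, 93.6, 33.6 and 39.1 CPM, against 20.1, 13.7, 13.7 and 17.9 CPM (1.98 ± 0.30, adjusted p = 2.3e-05). *ZFP36L2*, which promotes mRNA decay, was higher by 2.12 on the log2 scale, *PELI1*, a ubiquitin ligase, by 2.07 and *PLXNA4*, a semaphorin receptor, by 1.98. The matrix genes *SPON2* (2.36) and *MATN4* (2.05), the microtubule regulator *STMN1* (2.28), the sodium channel subunit *SCN3B* (1.97) and ENSDARG00000069054 (2.16) were also in the set.

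The remaining pair was uneven between plates. *mb*, which encodes the oxygen-binding protein myoglobin, stood at 89.6, 392, 101 and 69.5 CPM in members, against 26.4, 26.5, 69.9 and 2.09 CPM in all other cells (2.39 ± 0.40, adjusted p = 0.00011), with the highest member level on *prrx1b*-/- plate 2. *c2cd4a* had the largest fold of the named increases (2.61 ± 0.47, adjusted p = 0.00022) but came from 63 transcripts in 12 members. It stood at 179, 6.24, 39.2 and 13.0 CPM in members, against 10.5, 5.74, 5.87 and 6.67 CPM, so that on *prrx1b*-/- plate 2 the classes were nearly level.

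The largest decreases were larger than the largest increases. *gcga*, which encodes proglucagon, stood at 36.6, 37.5, 30.8 and 43.4 CPM in members, against 639, 927, 515 and 427 CPM in all other cells (log2 fold change -4.13 ± 0.19, adjusted p = 1.3e-13). It was seen in 31 members (12.9%), against 39.2% of all other cells. The apical polarity gene *crb2b* stood at 12.2, 9.36, 16.8 and 4.34 CPM in members, against 155, 145, 178 and 175 CPM (-3.90 ± 0.28, adjusted p = 2.0e-10). *podxl*, an apical sialomucin gene, stood at 40.7, 21.9, 19.6 and 34.7 CPM in members, against 291, 339, 259 and 216 CPM (-3.34 ± 0.23, adjusted p = 4.7e-11). In each of these genes the highest member plate lay far below the lowest plate of the other cells.

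*il11b*, a cytokine gene of the interleukin 11 family, stood at 28.5, 12.5, 25.2 and 0 CPM in members, against 239.9, 208, 138 and 125 CPM in all other cells (-3.40 ± 0.30, adjusted p = 5.5e-09). The pentraxin gene *PTX3* (ENSDARG00000068275) stood at 139, 131, 47.6 and 139 CPM in members, against 705, 709, 922 and 1124 CPM (-2.99 ± 0.19, adjusted p = 1.4e-11). Neither gene overlapped between the classes. *LIPG*, a secreted lipase, had a log2 fold change of -3.71, the peptide hormone gene *adm2a* of -3.53, *COL11A1*, a fibrillar collagen chain, of -3.33 and *ASPN*, a small proteoglycan, of -3.07. The others were *s100a10a* (-3.26), a partner of annexin A2, *ITM2C* (-3.23), *STRA6* (-2.91), the cell-surface receptor for retinol uptake, the kinase gene *ABL2* (-2.84), *VMP1* (-2.82) and the *MIR21* locus (-3.29). *MIR21* lies beside *VMP1* in vertebrates, and reads from one may have been counted for the other.

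**Figure D3:**
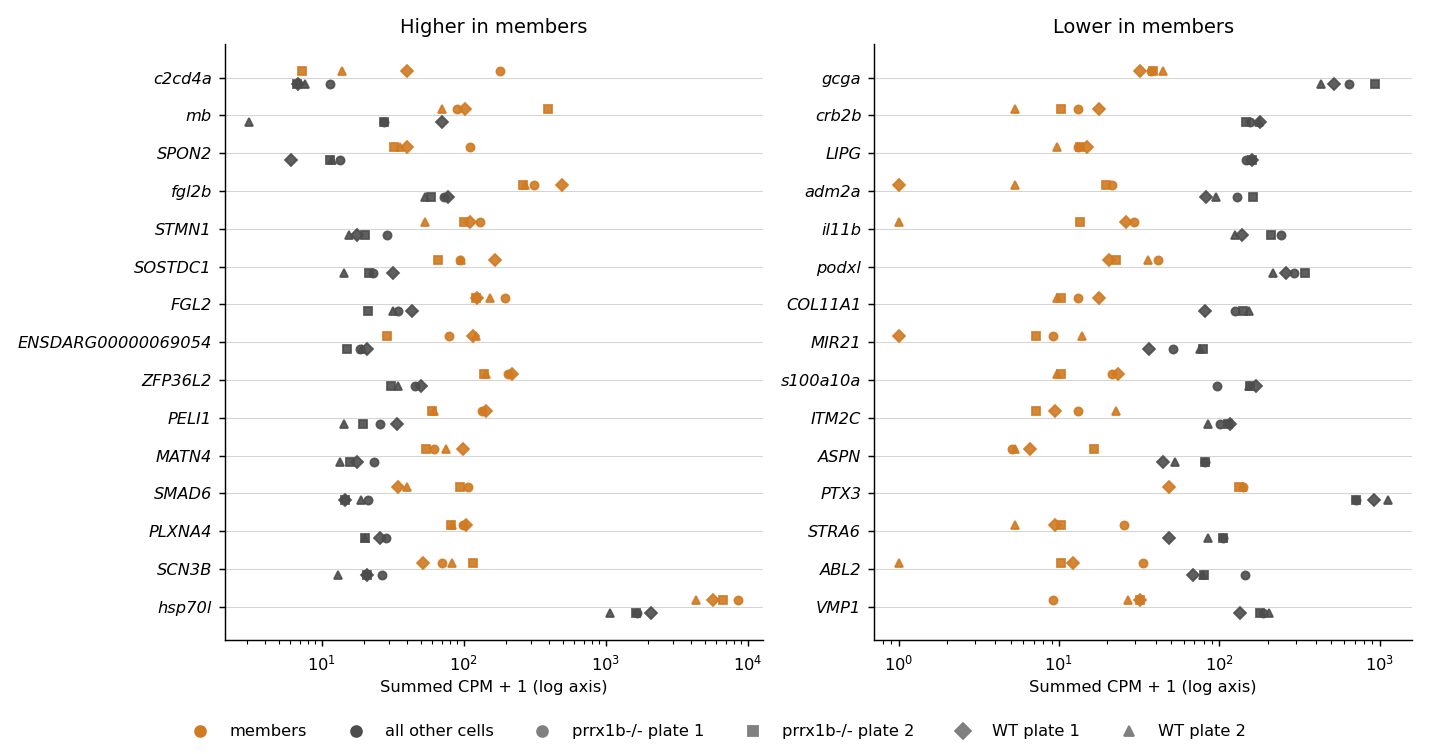
The 15 genes with the largest increase (left) and decrease (right) in members, as CPM plus 1 on a log axis. Each gene has a row for members (orange, above) and one for all other cells (grey, below), with 1 symbol per plate. The 2 colours separate on nearly every row, with *hsp70l* at 4356 to 8622 CPM in members, against 1068 to 2079 CPM, and *crb2b* at 4.34 to 16.8 CPM, against 145 to 178 CPM. *c2cd4a* is high on 1 plate.

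Depth moved with this comparison, and its part was not tested by itself. A depth window of 3000 to 8000 transcripts held 35 to 47 members and 114 to 122 other cells per plate. Members still had the lower median there on each plate. In this window 199 of 4396 genes passed, 95 higher in members and 104 lower. Of the 1400 genes, 1087 could be tested in the window, 1031 kept their direction, and their median size was 0.46 in place of 0.90 on the log2 scale. With every cell thinned to 1000 transcripts, 347 of 2336 genes passed, 195 higher and 152 lower, and 778 of 796 kept their direction. Of the 30 named genes, 23 could be tested in the window and all 23 kept their direction, with 17 past the test. The window holds part of the cells that picked the genes, so kept directions there are no independent check. Without *prrx1b*-/- plate 2, 933 genes passed.

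Heat shock and immediate early genes gave many increases and few decreases. Of 27 tested heat shock and chaperone genes, 14 rose and 1 fell, with a list median log2 fold change of 0.50 beside -0.01 over all genes tested. The inducible Hsp70 genes *hsp70.1* (1.62) and *hsp70.3* (1.58), the small heat shock gene *HSPB1* (1.31), the Hsp90 gene *HSP90AA1* (1.16) and the co-chaperone genes *BAG3* (1.41) and *dnajb1b* (1.83) were among them. *HSPA8* (ENSDARG00000068992), a constitutive Hsc70 gene, was the one that fell (-0.24). Of 21 tested immediate early genes, 12 rose and 4 fell, with a median of 0.47. *FOS* stood at 6007, 5239, 7673 and 8521 CPM in members, against 1847, 1626, 2799 and 1995 CPM in all other cells (1.69 ± 0.08, adjusted p = 6.1e-13), with no overlap, and *JUN* (1.34), *ATF3* (1.16), *egr1* (1.07) and *JUNB* (1.02) rose with it. Of 23 heat shock genes in the depth window 6 were higher, and of 20 immediate early genes 4 were higher and 1 lower. Beside these and the window counts of the lists below stand 95 higher and 104 lower among all 4396 genes tested in the window.

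These 2 lists separated members from one another as well. The heat shock list took between 0.46% and 17.8% of a member's transcripts, with a median of 2.56%, against a median of 1.64% in all other cells. It took over 3% in 97 members (40.4%), against 16.5% of all other cells. The immediate early list took between 0.49% and 9.15% in members (median 2.45%) and between 0 and 13.6% in all other cells (median 1.55%). Both lists were over 3% in 57 members, while 113 members had neither over 3%. Cells with none of the 4 genes had medians of 2.16% and 2.39%. With every cell over 3% on either list left out, 113 members and 201 to 241 other cells per plate remained and 656 of 7516 genes passed, 624 of which were among the 1400 and had the same direction. Among the cells left, which were chosen by these same lists, 4 of 27 heat shock genes were higher in members, and of 21 immediate early genes 5 were higher and 4 lower, beside 288 higher among all 7516 genes. There *hsp70l* had a smaller log2 fold change (0.60, adjusted p = 0.0035).

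Matrix genes moved in both directions. Of 38 tested matrix and remodelling genes, 16 rose and 7 fell (median 0.13), and of 14 tested collagens, 5 rose and 6 fell (median -0.17). In the depth window 6 of 34 matrix genes were higher and 1 lower, and 1 of 13 collagens was higher and 3 lower, with the collagen median at 0.20. *mfap5*, which encodes a microfibril-associated glycoprotein, stood at 1578, 1570.0, 1517 and 1908 CPM in members, against 542, 436, 469 and 419 CPM in all other cells (log2 fold change 1.78 ± 0.11, adjusted p = 4.6e-12). *hapln1a*, a link protein gene of hyaluronan matrix, stood at 2872, 2111, 1320.1 and 1667 CPM in members, against 743, 696, 489.9 and 462 CPM (1.67 ± 0.10, adjusted p = 4.5e-12). The plates did not overlap for either gene.

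Basement membrane genes were among those that rose. *COL4A1*, a type IV collagen chain, stood at 2106, 2952, 2394 and 2256 CPM in members, against 1112, 1056, 1172 and 981 CPM in all other cells (1.12 ± 0.09, adjusted p = 1.7e-09). The laminin chains *LAMA5* (1.36), *LAMB1* (0.83) and *lamc1* (0.63) and the laminin-binding nidogen *NID1* (0.68) rose too. So did the proteoglycans *DCN* (0.67) and *vcanb* (1.36), the dermatopontin gene *DPT* (1.36), the hyaluronan synthase *HAS2* (1.46), the elastic fibre genes *fbln5* (0.69) and *LOXL1* (0.68), and the collagen VI chains *col6a1* (0.32), *COL6A2* (0.29) and *COL6A3* (0.48). Another hyaluronan synthase, *HAS1*, was lower (-2.69). In the depth window the calls ended for *COL4A1* (0.29, adjusted p = 0.078), *LAMA5* (0.43, adjusted p = 0.12), *LAMB1* (0.21, adjusted p = 0.50) and *NID1* (0.33, adjusted p = 0.17). With cells thinned to 1000 transcripts they held for *COL4A1* (0.70), *LAMA5* (0.90) and *NID1* (0.55) and ended for *LAMB1* (0.35, adjusted p = 0.24).

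The collagens that fell included fibrillar and fibril-associated ones. One *COL12A1* gene (ENSDARG00000019601) stood at 346, 459, 578 and 717 CPM in members, against 1927, 2007, 1647 and 2659 CPM in all other cells (-2.02 ± 0.12, adjusted p = 3.9e-12). The second, ENSDARG00000078322, changed by -2.05 and *col11a1b* by -2.80. *COL1A2* was lower at full depth (-0.37), and in the depth window the sign turned (0.20, adjusted p = 0.14). *COL1A1*, the most abundant collagen gene of members, stood at 7529, 9649, 5799 and 8219.9 CPM, against 8802, 8734, 6214 and 8888 CPM (-0.11, adjusted p = 0.26). In the depth window *COL1A1* was called higher in members (0.30, adjusted p = 0.017). With cells thinned to 1000 transcripts it was called higher too (0.26, adjusted p = 0.0079). The gelatinase gene *MMP2* (-0.80), the membrane protease gene *MMP14* (ENSDARG00000008388, -0.56) and the protease inhibitor gene *TIMP2* (ENSDARG00000075261, -1.34) fell, while the other *TIMP2* gene (ENSDARG00000061226) was higher by 0.47.

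The fibroblast list gave 6 decreases among 13 tested genes and no increase, with a median of -0.37. They were both *COL12A1* genes, *PTX3* and *COL1A2*, given above, the secreted Wnt modulator gene *DKK3* (-1.74) and 1 of 2 fibronectin genes. *FN1* ENSDARG00000019815 stood at 611, 638, 541 and 608 CPM in members, against 1847, 1818, 1484 and 2235 CPM in all other cells (-1.65 ± 0.09, adjusted p = 3.9e-12). *FN1* ENSDARG00000006526, the second most abundant gene of members, stood at 21981, 20737, 15509 and 18864 CPM, against 21499.9, 24219.6, 15350.1 and 17335 CPM (-0.055, adjusted p = 0.59). The periostin gene *POSTN* was hardly detected, at 3.12 to 12.2 CPM in members and 7.51 to 24.1 CPM in all other cells. Of 11 genes of the list in the depth window, 4 were lower and 1 higher. Against cells with none of the 4 genes, 0 of 11 tested genes passed, beside 62 of 2659 among all genes tested there (2.33%). At that share the 0 does not set the list apart.

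Epithelial genes of the mesothelium were mostly lower in members, though far from absent. Of 19 tested genes, 12 fell and 2 rose, with a median of -0.63. *krt8*, a simple-epithelium keratin gene, stood at 4493, 4103, 4375 and 4076 CPM in members, against 7017, 6736, 5691 and 5863 CPM in all other cells (-0.61 ± 0.07, adjusted p = 4.9e-07). *krt18a.1* (-1.03), *krt4* (-0.95), *krt15* (-0.79), *krt94* (-0.63) and *krt18b* (-0.39) fell with it, as did the junction gene *TJP1* (-1.27), the cadherin gene *CDH2* (-0.86) and the annexin genes *ANXA2* (-0.73) and *ANXA1* (-0.58). The semaphorin gene *SEMA3D* (1.33) and *crip1* (0.38) rose. In the depth window 2 of 17 genes of the list fell and none rose, with a median of -0.20, and *krt94* turned (0.041, adjusted p = 0.90), while with cells thinned to 1000 transcripts 11 of 15 fell.

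Transcription factors of the epicardium did not move as one. Of 14 tested genes, *TBX20* (1.69), *GATA5* (1.29) and *MEIS1* (1.05) rose, and *HAND2* (-1.44), *twist1a* (-0.93), *snai2* (-0.89) and *klf2a* (-0.56) fell. *GATA5*, a zinc-finger factor gene of heart and epicardium, stood at 155, 106, 56.0 and 65.1 CPM in members, against 38.8, 42.1, 35.2 and 29.6 CPM in all other cells (1.29 ± 0.23, adjusted p = 0.00024). *HAND2*, a basic helix-loop-helix factor gene, stood at 130.4, 74.9, 39.2 and 60.8 CPM in members, against 192, 255, 133 and 202 CPM (-1.44 ± 0.21, adjusted p = 1.2e-05). No plate overlapped in either. In the depth window 2 of 13 rose and none fell, and *klf2a* turned (0.40, adjusted p = 0.40). With cells over 3% on a stress list left out, 1 of 14 rose and 3 fell, and the call of *GATA5* ended (0.79, adjusted p = 0.19).

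In the retinoic acid pathway, 2 of 11 tested genes rose and 2 fell. *RDH10* (ENSDARG00000012369), which makes retinaldehyde from retinol, stood at 371, 349.9, 219 and 243 CPM in members, against 1238, 1395, 823 and 776 CPM in all other cells (-1.88 ± 0.11, adjusted p = 4.6e-12), with no overlap. *STRA6*, given above, was the other that fell. *CYP26B1*, which degrades retinoic acid, was higher by 0.83 on the log2 scale and *DHRS3* (ENSDARG00000044982), which turns retinaldehyde back into retinol, by 0.63. In the depth window 1 of 7 genes of the list was lower and none higher.

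Secreted ligands split as well, with 6 of 11 tested genes higher and 4 lower. *BMP4*, a bone morphogenetic protein gene, stood at 93.7, 56.2, 19.6 and 21.7 CPM in members, against 7.37, 12.1, 10.2 and 5.42 CPM in all other cells (2.29 ± 0.40, adjusted p = 0.00014), from 53 transcripts in 30 members. *igf2b*, an insulin-like growth factor gene, stood at 1068, 885, 799 and 791 CPM in members, against 608, 608, 526 and 488 CPM (0.62 ± 0.10, adjusted p = 6.9e-05). The growth factor gene *VEGFD* (1.77), the apelin gene *APLN* (1.52) and *ANGPTL1* (0.62) rose too. One midkine gene rose (*MDK* ENSDARG00000020708, 1.90) and the more abundant one fell (*MDK* ENSDARG00000036036, -1.47). In the depth window 1 of 8 genes of the list was higher and 1 lower, and with cells thinned to 1000 transcripts 1 of 6 was higher and 3 lower, with a list median of -0.43 in place of 0.62.

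Further ligands were lower in members. They were *csf1a* (-1.58), a macrophage growth factor gene, the chemokine gene *cxcl12b* (-1.31) and *il11a* (-0.70). Among 4 TGF-beta ligands 2 fell: *tgfb1a* stood at 167, 131, 157 and 156 CPM in members, against 335, 385, 232 and 369.9 CPM in all other cells (-1.13 ± 0.16, adjusted p = 1.1e-05), and *TGFB3* had a log2 fold change of -0.95. Both calls ended in the depth window (*tgfb1a* -0.54, adjusted p = 0.16, *TGFB3* -0.74, adjusted p = 0.094). *TGFB2* stood at 130.3, 199.8, 182 and 199.7 CPM in members, against 216, 225, 155 and 209.9 CPM (-0.20, adjusted p = 0.45). Of 11 tested chemokine and inflammation genes, 6 fell, among them the complement genes *c3a.1* (-2.11) and *c7b* (-1.69) and both *PTGS2* genes, which encode prostaglandin synthases, and 2 rose, the complement gene *c4* (0.92) and the chemokine gene *ccl25b* (0.86). *ccl25b* turned in the depth window (-0.11, adjusted p = 0.90).

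**Figure D4:**
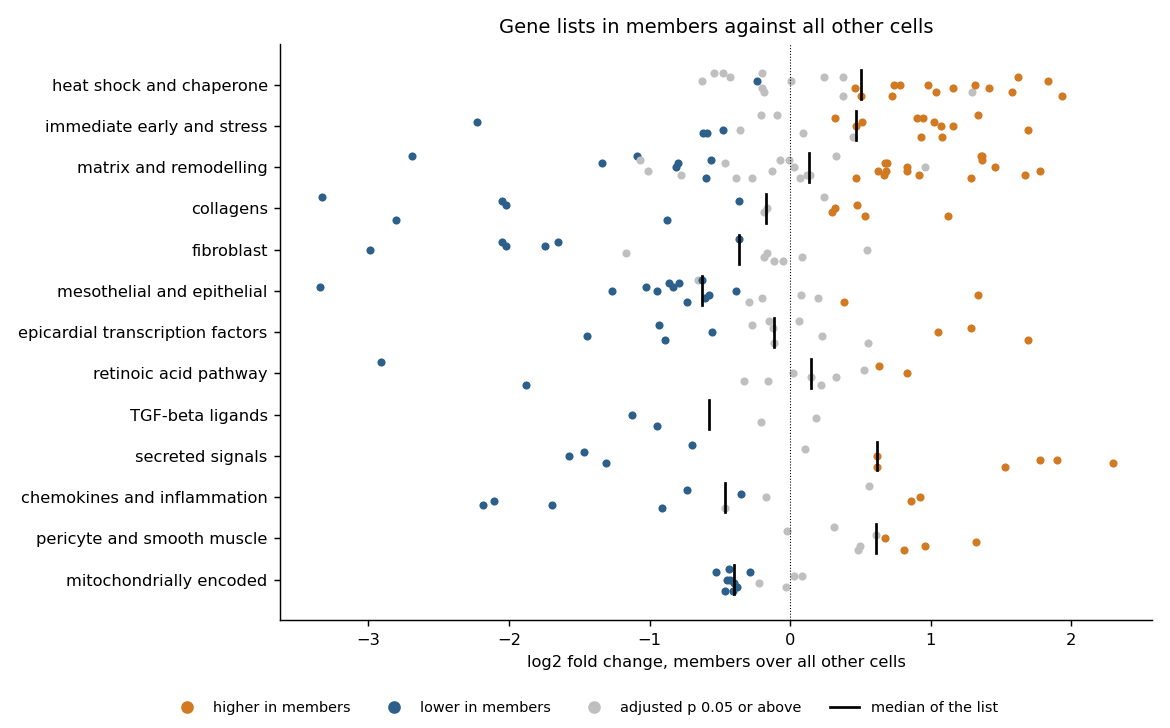
Log2 fold change of members over all other cells for each tested gene of 13 lists, 1 point per gene, with the list's median as a bar. Heat shock genes reach 1.94 and have 14 increases among 27 genes. Mesothelial genes lie mostly below 0, with 12 decreases among 19, and matrix genes and collagens spread to both sides.

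Markers of endothelial cells, cardiomyocytes and blood cells were low in members. The endothelial list summed to 52.9, 12.5, 14.0 and 30.4 CPM in members and 7.94, 8.92, 12.5 and 4.59 CPM in all other cells, with *TIE1* at 0 in members. Its sum was thus higher in members on every plate, though 0 of its 4 matched genes had enough transcripts to be tested. Without *prrx1b*-/- plate 2, 1 gene of the list could be tested and was higher in members (3.10). The cardiomyocyte list summed to 11.2 to 114 CPM, against 2.87 to 150 CPM, with *nppa* and *MYH6* at 0. The erythrocyte list summed to 4.07 to 21.7 CPM, against 11.7 to 132 CPM, and 3 of its 5 genes were at 0. In the leukocyte list (15.6 to 264 CPM, against 19.9 to 225 CPM) *ptprc*, *LCP1* and *CORO1A* were at 0 in members, and the counts came from the invariant chain genes *cd74a* and *cd74b*, in 19 and 17 members.

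Pericyte and smooth muscle genes summed to 2341 to 4374 CPM in members, against 1534 to 2161 CPM in all other cells. Of 9 tested genes, *rgs5b* (1.32), the Notch receptor genes *NOTCH3* (0.96) and *NOTCH1* (0.81) and the actin-binding *TAGLN* ENSDARG00000033466 (0.67) rose, with a list median of 0.61. None of 9 rose in the depth window and 1 fell, with a median of -0.81. With cells thinned to 1000 transcripts 2 of 8 rose and 1 fell, and *NOTCH1* turned (-0.020, adjusted p = 0.99).

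The class that met the same requirement on *tcf21* and *tbx18* is that of the 585 cells that also held *aldh1a2* or *wt1b*. These were deeper than members, with medians of 10357, 10306, 8968 and 7993 transcripts, against 5605, 4786, 4127 and 3200 transcripts. Against these 585 cells 1310 of 6824 genes passed (19.2%), 703 higher in members (10.3%) and 607 lower (8.90%). The part of depth in these calls was not tested. These cells are part of all other cells, so both comparisons share cells on each side. Among those not yet given, *AGTR2*, an angiotensin receptor gene, stood at 40.7, 56.2, 75.6 and 65.1 CPM in members, against 12.7, 14.1, 18.9 and 3.82 CPM in these cells (2.22 ± 0.34, adjusted p = 3.4e-05). *TCIM* stood at 196, 287, 255 and 208 CPM in members, against 71.4, 47.0, 77.8 and 17.6 CPM (2.20 ± 0.24, adjusted p = 4.9e-07), *IQSEC1* was higher by 2.37 on the log2 scale and the actin-binding *CORO2B* by 2.25. *slc5a8l*, a sodium-coupled transporter gene, stood at 4.07, 0, 2.80 and 0 CPM in members from 2 transcripts, against 43.7, 64.0, 50.1 and 44.3 CPM, and the ephrin gene *EFNA1* had a log2 fold change of -2.88. In cells of 3000 to 8000 transcripts 106 of 3029 tested genes passed. DESeq2 called 820 of 6824, and 871 of 6946 passed without *prrx1b*-/- plate 2.

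The 184 cells with none of the 4 genes were shallower than members on every plate, and their comparison was chosen after the data were seen. Median depth was 5605, 4786, 4127 and 3200 transcripts in members, against 4303, 3025, 3235 and 2450 transcripts in these cells. Against them 62 of 2659 genes passed (2.33%), 8 higher in members (0.301%) and 54 lower (2.03%), and DESeq2 called 1 and 29. This comparison shares the members with that against all other cells. Of the 1400 genes called there, 847 could be tested here and 543 kept their direction. Of these 847, 22 were called in the same direction and 11 in the opposite one. Their median size was 0.27 in place of 0.81 on the log2 scale. There were 0 calls among 14 mesothelial, 31 matrix, 13 collagen, 11 fibroblast, 4 retinoic acid and 4 TGF-beta genes tested. Over all lists 12 of 274 tested genes passed, 1 of them higher.

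Mural cell genes were among those lower in members than in these cells. *cxcl12b*, a chemokine gene, stood at 12.2, 21.9, 8.40 and 13.0 CPM in members, against 505, 216, 170.0 and 250.4 CPM in cells with none of the 4 genes (log2 fold change -4.23 ± 0.35, adjusted p = 1.4e-05). *RGS5*, a regulator of G protein signalling and a pericyte marker, stood at 85.5, 369, 252 and 195 CPM in members, against 1569, 1798, 1614 and 1057 CPM (-2.83 ± 0.24, adjusted p = 1.4e-05). *KCNJ8*, a potassium channel gene of pericytes, stood at 32.6, 46.8, 33.6 and 21.7 CPM in members, against 360.4, 159, 150.4 and 122 CPM (-2.47 ± 0.32, adjusted p = 0.00094). The plates of the 2 classes did not overlap for any of these genes. The contractile kinase gene *MYLK* (-2.16), *EPAS1* (-3.32), a hypoxia-inducible factor gene, the nuclear receptor gene *NR4A2* (-3.37) and the calcium pump gene *ATP2A3* (-3.33) were lower too. Against all other cells at full depth *RGS5* (0.48, adjusted p = 0.12) and *KCNJ8* (0.31, adjusted p = 0.55) had not passed the test. In cells of 3000 to 8000 transcripts both signs turned. There *RGS5* was called lower in members (-1.004, adjusted p = 0.038) and *KCNJ8* did not pass (-0.98, adjusted p = 0.12). *RGS5* did not pass with cells thinned to 1000 transcripts (-0.54, adjusted p = 0.080) or without cells over 3% on a stress list (0.78, adjusted p = 0.089).

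The 8 genes higher in members than in cells with none of the 4 include a growth factor receptor. *FGFR2*, a fibroblast growth factor receptor gene, stood at 134, 162, 134 and 169 CPM in members, against 68.8, 82.4, 52.3 and 67.1 CPM in cells with none of the 4 (1.12 ± 0.26, adjusted p = 0.038). *ETV4*, a transcription factor gene induced by FGF signalling, stood at 147, 190.5, 115 and 230.1 CPM in members, against 63.5, 121, 52.3 and 48.8 CPM (1.24 ± 0.29, adjusted p = 0.042). *MEIS1*, the homeobox gene higher against all other cells too, stood at 138, 140.5, 171 and 126 CPM in members, against 63.5, 63.4, 65.3 and 54.9 CPM (1.18 ± 0.26, adjusted p = 0.033). The first and the third did not overlap between the classes. *mb* (2.52), the LIM gene *FHL1*, *ENC1* (1.05), *ZCCHC24* (0.99) and the glutathione transferase *GSTM3* (0.88) were the others. DESeq2 called only 1 gene higher in this comparison, and *MEIS1* was not that gene. By edgeR 0 of 21 heat shock genes were called, beside 62 of 2659 among all genes tested (2.33%). Of the heat shock genes 3 had an unadjusted p under 0.05 by edgeR and 0 were called by DESeq2.

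Members were not uniform. The 84 members with *tcf21* alone were compared with the 63 with *tbx18* alone, and 6 of 1154 genes passed (0.52%), 2 higher (0.173%) and 4 lower (0.347%). *il11a*, an interleukin 11 gene, stood at 965, 1634, 509 and 744 CPM in *tcf21*-only members, against 283, 318, 397 and 103 CPM in *tbx18*-only members (log2 fold change 1.73 ± 0.35, adjusted p = 0.044). *ATF3*, a stress-induced transcription factor gene, stood at 779.7, 413, 449 and 595 CPM in *tcf21*-only members, against 1737, 1065, 1160.1 and 1747 CPM (-1.38 ± 0.20, adjusted p = 0.0067). The plates did not overlap in *il11a* or *ATF3*. *HSPH1* (-1.37), *BTG2* (-0.86) and *HSP90AA1* (-0.79) were lower too. The number of genes that passed was 1 without WT plate 1, 1 without *prrx1b*-/- plate 2 and 3 without WT plate 2, and each class held only 10 to 25 cells per plate.

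Between genotypes, members differed in few genes at this depth. Of 3558 genes tested within members, 5 passed (0.141%), all lower in *prrx1b*-/-, while 345 had an unadjusted p under 0.05 and DESeq2 called 9, all lower. The 9 included the 3 unnamed genes below, while DESeq2 gave no adjusted p for *si:dkey-238c7.13* and *ifi27.2*. By edgeR 0 genes were higher. *si:dkey-238c7.13* stood at 8.14 and 18.7 CPM in *prrx1b*-/- members, against 314 and 278 CPM in WT members (log2 fold change -4.41 ± 0.40, adjusted p = 8.7e-05). *ifi27.2*, a gene of the interferon alpha-inducible protein 27 family, stood at 8.14 and 15.6 CPM in *prrx1b*-/- members, against 224 and 243 CPM in WT members (-4.25 ± 0.43, adjusted p = 0.00017). The other 3 were unnamed genes at higher levels. ENSDARG00000082180 stood at 587 and 278 CPM in *prrx1b*-/- members, against 3527 and 1635 CPM in WT members (-2.64), ENSDARG00000096145 at 326 and 362 CPM, against 2706 and 1091 CPM (-2.51), and ENSDARG00000070212 at 1961 and 1586 CPM, against 9878 and 4459 CPM (-2.06). WT plate 1 was the highest of the 4 plates in these unnamed genes. Without single plates 28 to 75 genes passed, from 28 without *prrx1b*-/- plate 1 and 30 without *prrx1b*-/- plate 2 to 67 without WT plate 2 and 75 without WT plate 1, with the 5 genes among them each time.

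The same 5 genes were lower in *prrx1b*-/- in all other cells, which came from the same plates. There *si:dkey-238c7.13* stood at 52.8 and 48.0 CPM in *prrx1b*-/-, against 717 and 1086 CPM in WT (-4.14). *ifi27.2* stood at 19.8 and 13.7 CPM in *prrx1b*-/-, against 184 and 227 CPM in WT (-3.59). ENSDARG00000082180 (-2.22), ENSDARG00000096145 (-2.51) and ENSDARG00000070212 (-2.01) were lower as well. In all other cells 143 of 10804 genes passed (1.32%), 58 higher (0.537%) and 85 lower (0.787%), a comparison with more cells that was added after the data were seen. Of 294 list genes tested within members, 0 passed between genotypes by edgeR, with 75 at an unadjusted p under 0.05 and 5 by DESeq2. A *PRRX1* gene, ENSDARG00000033971, stood at 77.3 and 115 CPM in *prrx1b*-/- members, against 137 and 122 CPM in WT members (-0.47, adjusted p = 0.73). The second, ENSDARG00000042027, had 2, 2, 1 and 0 transcripts in members and 13, 7, 6 and 3 in all other cells. The first had 347, 440, 293 and 293 transcripts in all other cells. The study reported that *prrx1b* was too low in these data to relate it to any cluster, and ENSDARG00000042027 was the scarcer gene. The name table does not say which of them is *prrx1b*, and a nonsense allele need not change transcript number, so these levels do not check the genotype labels.

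The genotype effect itself differed between members and all other cells for 3 of 8448 genes (0.0355%) by edgeR, 1 higher (0.0118%) and 2 lower (0.0237%), and for 0 by DESeq2, with 363 and 74 at an unadjusted p under 0.05. *CLU*, which encodes the secreted chaperone clusterin, stood at 1316 and 1493 CPM in *prrx1b*-/- members, against 1472 and 1174 CPM in WT members. In all other cells it stood at 5301 and 4896 CPM in *prrx1b*-/-, against 1863 and 2353 CPM in WT, and was called there (1.29 ± 0.16, adjusted p = 0.0014). The difference of the effects was -1.22 ± 0.18, adjusted p = 0.00088, and it was 0.11 (adjusted p = 1.00) among cells of 3000 to 8000 transcripts. The other 2 genes rest on few transcripts. *MYL7*, a cardiomyocyte myosin gene, had 15 transcripts in members and differed by 6.11, and *elnb*, an elastin gene, had 99 and differed by -2.27. Leaving out a single plate leaves 1 plate of a genotype, and the calls of these 3 genes were not kept in every such fit. Without WT plate 1, and likewise without *prrx1b*-/- plate 1, none of the 3 kept its call.

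**Figure D5:**
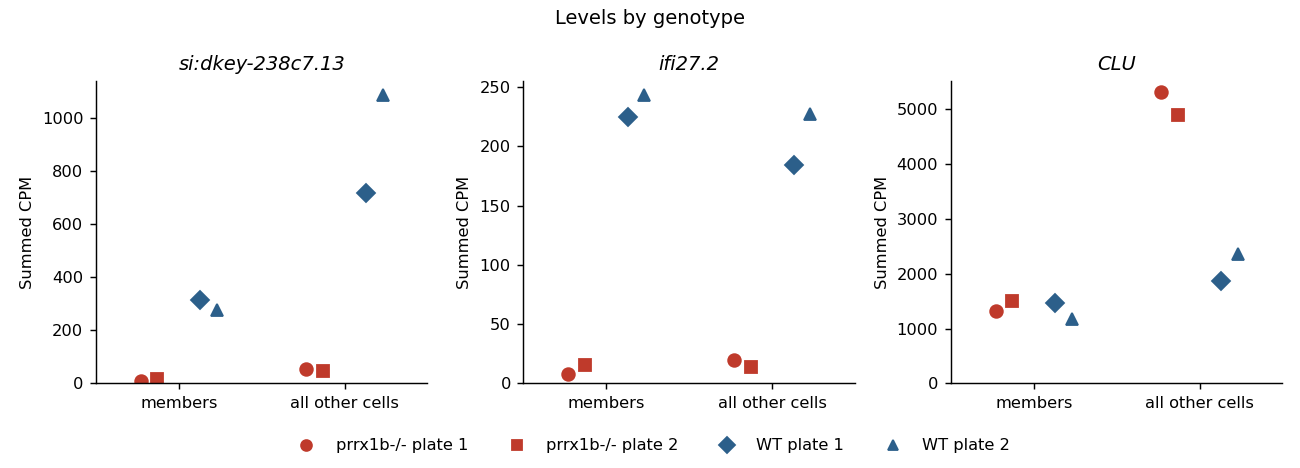
CPM of 3 genes by genotype, *prrx1b*-/- plates in red and WT plates in blue, in members (left of each panel) and in all other cells (right). *si:dkey-238c7.13* and *ifi27.2* are lower in *prrx1b*-/- in both classes. *CLU* lies between 1174 and 1493 CPM in members of both genotypes and reaches 5301 and 4896 CPM in the other cells of *prrx1b*-/-, against 1863 and 2353 CPM in those of WT.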

How the data were processed

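Single cells had been sorted into 384-well plates and sequenced by SORT-seq. Per the labels and methods, the authors aligned reads with BWA 0.6.2 to the Zv9 zebrafish transcriptome and deposited expected counts: transcript numbers per gene and well, corrected for barcode collisions and therefore not whole. The labels give a molecular barcode of 4 bases, but the deposited values follow the collision correction for 6 bases: of 910 distinct values in the range where the correction shows, 910 matched that of 4096 barcodes within 0.01 and 3 that of 256. No further normalization had been applied. Wells with fewer than 1000 transcripts over zebrafish genes, spike-ins excluded, were left out, and no doublet caller was run. Counts were summed per class of cells and plate, rounded, filtered on low genes and tested with edgeR 4.0.16 (TMM, quasi-likelihood, Benjamini-Hochberg adjustment), with the plate as a block between classes and none between genotypes. DESeq2 1.42.0 was an alternative, with other depth limits, thinning, the rule on a share of 0.5 of the transcripts and each plate left out. The member shares were compared by exact permutation. The members and gene lists were chosen with earlier results of these data known. Named genes were the 15 largest changes per direction (10 between genotypes, 5 for the difference of effects and for *tcf21*-only against *tbx18*-only members) past an adjusted p of 0.05, in one direction on every plate, at 50 CPM or more, and all list genes. The plates held 245651 and 320355 member transcripts in *prrx1b*-/- and 357151 and 230372 in WT. The name table gave a symbol for 16194 of 20905 detected genes. The plates use the same 384 well barcodes. Intervals cover counting error only. The script was tested on simulated data. One gene that passed a test is not reported here.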

Additional observations from a re-analysis of the deposited data

Results flagged for a closer look

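The genotype effect differed between members and all other cells, by edgeR's test of the difference itself, for 3 genes. It was -1.22 on the log2 scale for *CLU*, with a range of -1.51 to 0.11 over 11 alternatives, 5 of which passed the test. It was 6.11 for *MYL7*, whose members held 9, 3, 3 and 0 transcripts and whose other cells held 23, 3, 228 and 17, and 5 of 7 alternatives passed. It was -2.27 for *elnb*, whose members stood at 20.4 and 87.4 CPM in *prrx1b*-/-, against 70.0 and 178 CPM in WT, while all other cells stood at 74.0 and 159 CPM in *prrx1b*-/-, against 34.0 and 81.0 CPM in WT, and 3 of 11 alternatives passed.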

How the results depend on the processing

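Between members and all other cells 1400 of 8448 tested genes were called. The number was 199 of 4396 in cells of 3000 to 8000 transcripts and 347 of 2336 with cells thinned to 1000 transcripts. With the rule on 0.5 of the transcripts it was 841 of 6089, and without cells over 3% on a stress list 656 of 7516. In the other comparison, with cells with none of the 4 genes, it was 62 of 2659. The last 2 were chosen after seeing the data. Fewer genes could be tested in each of these, so the counts alone are not comparable. The 1400 became 965 with DESeq2 and 1190 without the plate block. With no filter on low genes the number was 1628, of which 27.0% were higher, in place of 50.8%. Leaving out a plate gave 933 to 1181. Against cells with *tcf21* or *tbx18* and *aldh1a2* or *wt1b*, 1310 of 6824 tested genes were called. With DESeq2 it was 820 of 6824, in the depth window 106 of 3029 and thinned 251 of 1406. The rule on 0.5 of the transcripts gave 697 of 3673, and leaving out stressed cells gave 522 of 6156. With a plate left out 871 to 1074 genes were called. Within members, genotype calls (5) were 9 with DESeq2, 33 unfiltered, 8 at 2000 transcripts or more and 143 in all other cells, and 28 to 75 with a plate left out, where the lone plate is assumed to vary like the others; the 5 genes kept their direction in each. The replicate block between genotypes gave 16 calls, but same-numbered plates shared only a number (correlation of their deviations -0.035 over 3558 genes). The 3 differences of effects became 0 with DESeq2, in the depth window, thinned and with the rule on 0.5 of the transcripts, 9 unfiltered and 0 to 3 with a plate left out. *tcf21*-only against *tbx18*-only calls (6) were 15 unfiltered and 1 to 6 with a plate left out. The difference in member share ranged from -7.54 to -3.44 points with a plate left out.

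Among 189 single-gene results followed, directions turned in the depth window for *COL1A2* (0.20), *FOSL2* (-0.066), *klf2a* (0.40), *krt94* (0.041), *LUM* (0.16), *ccl25b* (-0.11) and the *CLU* difference (0.11), when thinned for *COL1A2* (0.013), *LUM* (0.043) and *NOTCH1* (-0.020), and without stressed cells for *AHSA1* (-0.16). Over all genes called between members and all other cells, 56 of 1087 turned in the window and 18 of 796 when thinned. Of the called nuclear oxidative phosphorylation genes, 17 of 19 kept their direction in the window and 11 of 14 when thinned. The cause was not tested. Members had a median of 1212.5 to 1791 genes detected per plate, which limits the test to their more abundant genes.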

Other observations

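Energy and housekeeping genes were lower or level in members. Of 13 mitochondrially encoded genes 9 fell (median -0.40), with *MT-CO1*, a subunit of cytochrome c oxidase, at 3928, 3974, 3131 and 3697 CPM in members, against 5203, 5218, 4009 and 4458 CPM in all other cells (-0.40 ± 0.07, adjusted p = 0.00013 by edgeR), and 6 of 11 also fell against cells with none of the 4 genes. In the depth window 2 of 12 fell (median -0.24), and the call of *MT-CO1* ended (-0.22, adjusted p = 0.13 by edgeR). With cells thinned to 1000 transcripts 6 of 10 fell. Of 81 nuclear genes of oxidative phosphorylation 22 fell by edgeR and 9 by DESeq2, and the list's median was -0.43. By edgeR 0 of 60 were called among cells of 3000 to 8000 transcripts, where the median was -0.076. Of 72 ribosomal protein genes 5 were lower by edgeR and 2 by DESeq2, with a median of -0.087, and in the depth window 0 of 70 were called. Over all genes tested against all other cells, 689 of 8448 (8.16%) were lower by edgeR, so the ribosomal count did not stand out.

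Cell cycle genes were scarce in members and in the other classes too. The list summed to 109 to 178 CPM in members and 136 to 205 CPM in all other cells. In cells with none of the genes of the rule it summed to 116 to 387 CPM. Of 23 matched genes 9 were at 0 in members, and *mki67* was seen in 1 member and *TOP2A* in 1. Zeros depend on the transcripts summed, which were fewer in members. By edgeR 0 of 6 tested genes passed against all other cells (1 at an unadjusted p under 0.05, and 0 called by DESeq2). Over all genes tested 1400 of 8448 passed (16.6%), and with 6 genes the 0 does not set the list apart. *PCNA*, a replication gene, stood at 77.3, 109, 89.6 and 52.1 CPM in members, against 83.8, 96.9, 69.2 and 94.4 CPM in all other cells.

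Within members, the ribosomal protein list had a median log2 difference of -0.46 between *prrx1b*-/- and WT, beside -0.00093 over all genes tested, with 0 of 70 genes past the adjusted threshold by edgeR, 37 at an unadjusted p under 0.05 and 4 called by DESeq2. The list took a median of 9.27% and 9.45% of a member's transcripts on the *prrx1b*-/- plates, against 10.8% and 11.5% on the WT plates. In all other cells it took 9.02% and 9.22%, against 11.3% and 12.6%.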
